A study of Oncorhynchus gorbuscha with 76 samples.

Results

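In spawning pink salmon (Oncorhynchus gorbuscha), 9 genes stood on the same side of their ocean level in every tissue and sex measured. They are tspan36, dusp6, ninj1, cdkn1ba, ubl3b, midn and nfil3, higher at spawning, and flt3 and slf1, lower at spawning, except that slf1 in male muscle turned to a log2 difference of 0.11 when libraries were scaled by size only. These are 9 of the 40756 genes in the tables, named by symbol from the comparison of spawning with ocean fish, so their values in that comparison chose them and are given as a description with no test. Pink salmon return from the ocean to rivers, spawn once and die. The 76 poly(A) RNA libraries came from 28 fish by their numbers, females and males taken in the ocean, in the river or at spawning. Muscle, gonad and head kidney were sampled, which gives 18 groups. The same fish number at another stage is another fish. Each of the 6 combinations of tissue and sex (female muscle, male muscle, female head kidney, male head kidney, ovary and testis) held 3 stages with 3 to 5 libraries each. The labels give a stage, a sex, a tissue and a fish number, and no age, strain or further treatment. They do not say how the fish were sampled within a stage, so p-values measure the spread between these libraries.

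The 9 genes act in different processes. Dual-specificity phosphatase 6, encoded by dusp6, removes phosphate from the kinase ERK and is itself induced by ERK signalling, which makes it a feedback brake. The gene cdkn1ba is a copy of the gene for p27Kip1, an inhibitor of cyclin-dependent kinases that holds cells before DNA replication. The bZIP repressor nfil3 binds the same DNA element as the PAR bZIP activators of the circadian output and in mice is needed to form natural killer cells. Midnolin, encoded by midn, carries nuclear proteins to the proteasome without ubiquitin in mammalian cells, and ubl3b encodes a membrane-anchored ubiquitin-like protein whose mouse counterpart sorts proteins into extracellular vesicles. The tetraspanin tspan36 marks pigment cells in zebrafish, and ninjurin 1, from ninj1, ruptures the plasma membrane in lytic cell death in mammals. Of the genes listed lower, flt3 encodes the receptor kinase of early blood progenitors and dendritic cells, and slf1 encodes a factor that in human cells links the SMC5-SMC6 complex to RAD18 at damaged DNA.

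Total estimated counts ran from 15784611 to 29286325 per library in muscle. The head kidney range was 13651505 to 18724203 and the gonad range 12719694 to 17696550. Levels are CPM, a library's counts scaled to a common total, after TMM scaling, which was done apart for each tissue and sex, so levels set side by side across tissues rest on separate scalings. Markers of the labelled tissue were present in muscle, head kidney and testis, but oocyte markers were close to 0 in the ovary, with a summed level of 0.187 to 0.418 CPM in the ocean and 2 of the 5 markers at 0. At spawning they summed to 0.563 to 63.6 CPM with 0 at 0, and the 1 tested rose. Several marker sums moved with stage. In testis the summed level of 7 germ cell markers ran from 4440 to 11300 CPM in the ocean and from 0.415 to 45.1 CPM at spawning, while that of 5 somatic cell markers ran from 56.9 to 79.6 CPM and from 12800 to 31700 CPM. In ovary the somatic markers ran from 36.2 to 111 CPM in the ocean and from 286 to 863 CPM at spawning, with 4 of 4 tested called higher. The 3 interrenal (steroid-forming cell) markers ran from 38.3 to 117 CPM and from 1370 to 2810 CPM there, with 3 of 3 called higher, and rose in 3 of 3 in testis as well. Skeletal muscle markers summed to 7160 to 11900 CPM in ocean female muscle and 322 to 2940 CPM at spawning, and to 7630 to 22000 CPM and 606 to 1220 CPM in males, although of the 3 tested in muscle of each sex 2 fell and 1 rose. In bulk tissue, fewer cells of a type and less RNA per cell cannot be told apart. The part of these shifts in the values below was not tested. Head kidney libraries also differed within a group. Their 7 renal tubule markers summed to 524 to 839 CPM in ocean females and 6.27 to 1440 CPM at spawning, and to 3.51 to 559 and 2.94 to 138 CPM in males. Interrenal markers ran from 0.271 to 1.2 and 1.32 to 8490 CPM in females, and from 0.287 to 4890 and 1.54 to 1900 CPM in males. Of the tested markers of either kind, 0 were called there. The interrenal part was not tested.

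The library labelled river male 6 lay outside the range of the other 4 river males for each of the 9 genes, on the side of the spawning males. Counts of calls and of ranges in male muscle that use it are given with and without it, and it is described in full further on.

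The 9 genes were chosen by a call (edgeR quasi-likelihood test, Benjamini-Hochberg adjusted p under 0.05) in the same direction in all 6 combinations. Of 19345 genes tested in all 6, 90 (0.465%) met this higher and 12 (0.062%) lower, and of the 4865 of these with a symbol, 13 (0.267%) met this higher and 4 (0.0822%) lower. The 9 genes are therefore 9 of 17, and the others were klf9, dpp7, nipal3, ghrb, memo1 and si:dkey-16l2.16 on the higher side and cbx1b and smarca1 on the lower side. Just inside the threshold stood slf1, with a largest adjusted p of 0.0496 in male muscle, ubl3b with 0.0399 and ninj1 with 0.0383 in the same tissue. In female head kidney cdkn1ba (0.0326) and flt3 (0.0324) followed, and both lost their call there without any 1 of the 4 ocean libraries. In male head kidney nfil3 (0.0274) lost its call without ocean male 1, 6 or 9 or spawning male 7, 9 or 10. Just outside stood fkbp5 (0.05), nr1h3 (0.0551) and pef1 (0.0585) on the higher side and scai (0.0817), ech1 (0.0916) and chdh (0.0984) on the lower side. In this comparison, 25.8% of genes were called higher and 24.7% lower in female muscle, 20.2% and 20% in male muscle, 4.77% and 3.15% in female head kidney, 4.17% and 2.6% in male head kidney, 16.3% and 20% in ovary and 40.7% and 43.2% in testis. Leaving out single libraries left 5 to 9 of the 9 genes with a call in all 6 combinations. The count of 5 came without spawning male 9 muscle, when ninj1, ubl3b, nfil3 and slf1 were no longer called in male muscle.

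**Figure D1:**
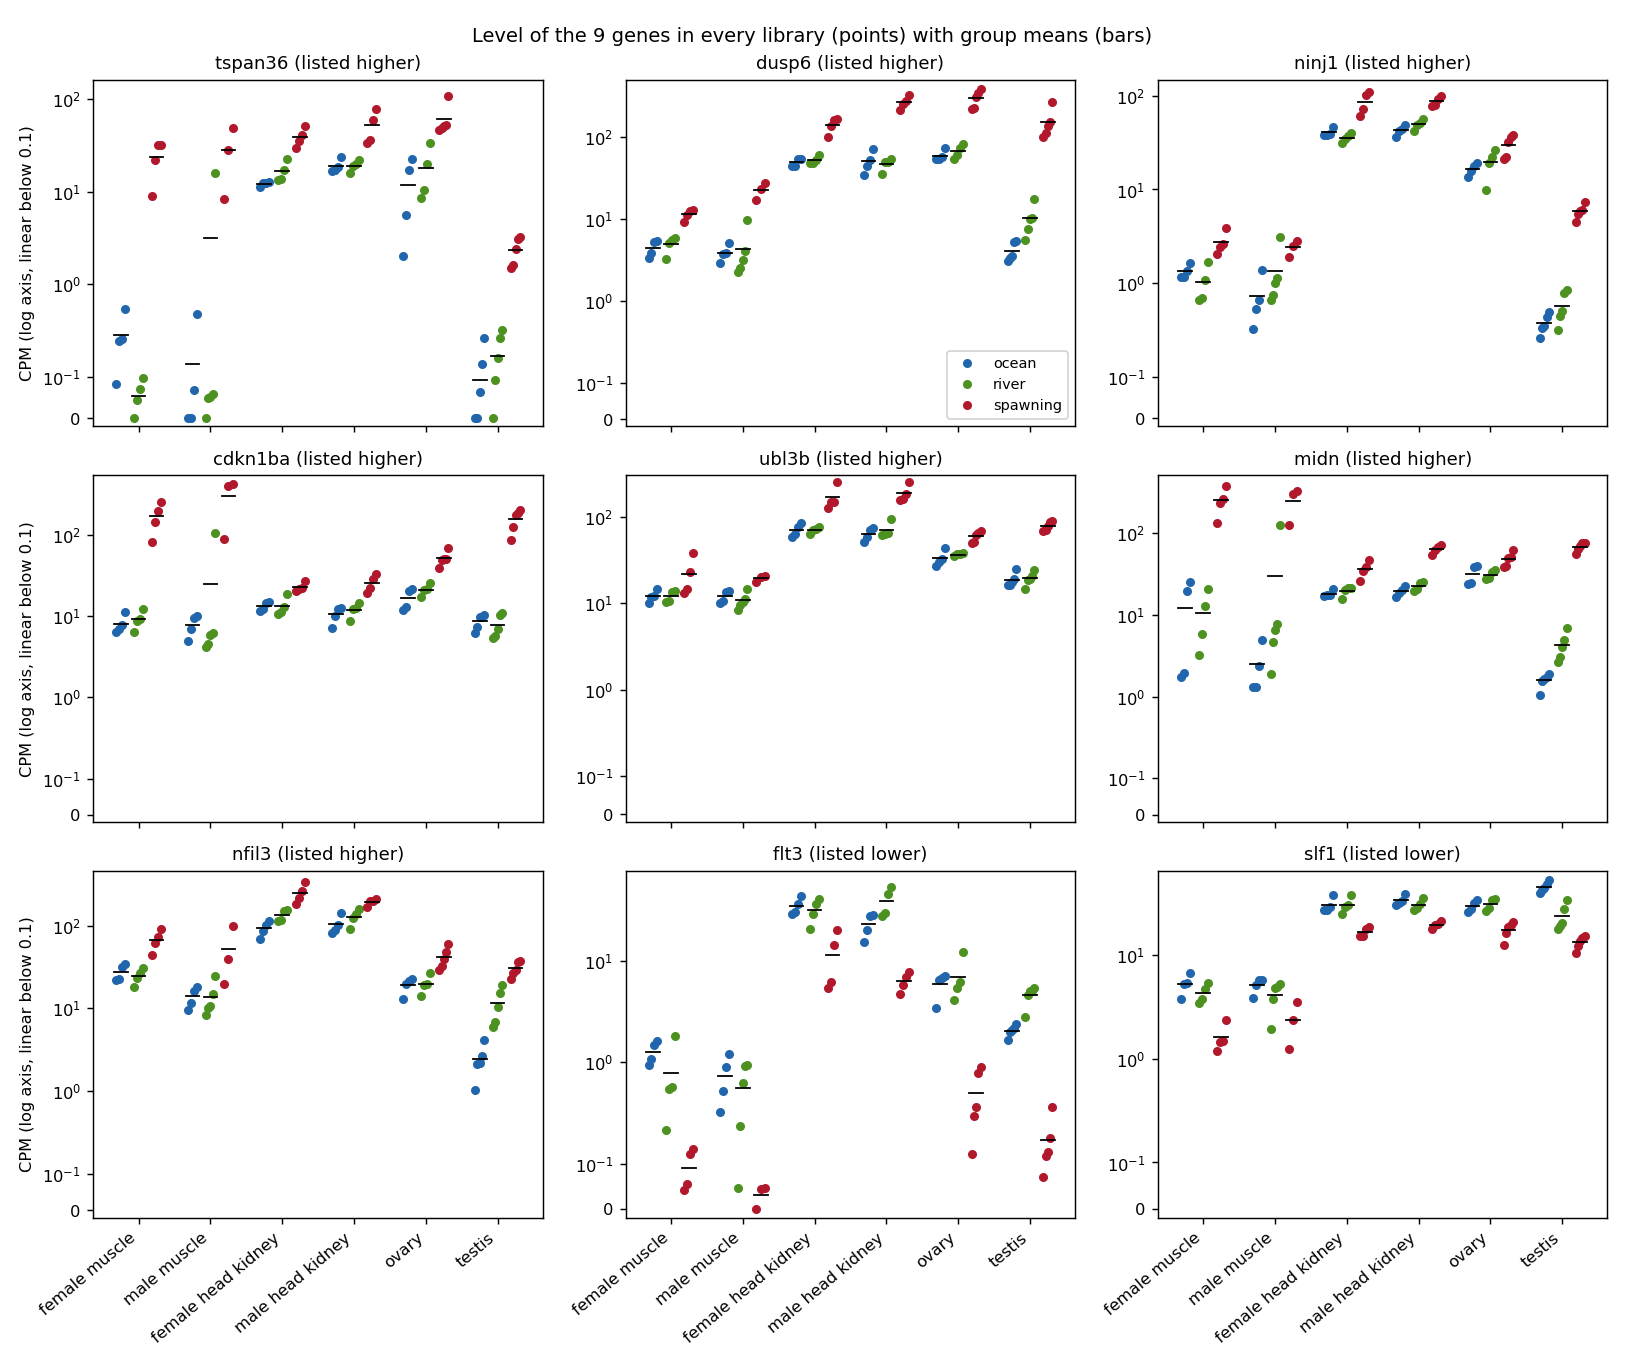
Level of each gene in every library, in CPM on a log axis that is linear below 0.1, with 1 point per library, coloured by stage, and a bar at each group mean. Ocean and river points mostly lie side by side and spawning points stand apart, above for 7 genes and below for flt3 and slf1, whose male muscle difference turns to 0.11 with scaling by library size only. The river male muscle points of tspan36, cdkn1ba and midn include a high point that belongs to the library labelled river male 6.

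The comparison of spawning with ocean chose the genes, so little overlap of these stages follows from the choice. The ranges of ocean and spawning libraries did not overlap in 52 of the 54 cases of a gene in a tissue and sex. These cases share fish across tissues. Over all tested genes the ranges did not overlap for 43.7% in female muscle, 45.4% in male muscle, 21.8% in female head kidney, 14.2% in male head kidney, 29% in ovary and 74.2% in testis. The exceptions were ubl3b in female muscle and midn in ovary. The size of the difference differed between tissues. For midn the log2 fold change ran from 0.61 in ovary to 6.61 in male muscle, for tspan36 from 1.46 in male head kidney to 7.58 in male muscle and for ubl3b from 0.69 in male muscle to 2.08 in testis.

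The ERK phosphatase gene dusp6 had its smallest spawning-to-ocean difference in female muscle and its largest in testis. In testis the 5 ocean libraries held 3.06, 5.14, 5.37, 3.51 and 3.28 CPM, the 5 river libraries 10.3, 5.48, 9.84, 7.46 and 17.5 CPM and the 5 spawning libraries 134, 112, 267, 100 and 150 CPM. The 3 stages did not overlap, and the fitted log2 difference between spawning and ocean was 5.22 ± 0.37 (SE). In female muscle the 4 spawning libraries held 9.22 to 12.6 CPM against 3.31 to 5.34 CPM in the 4 ocean libraries. Male head kidney held 213, 252, 270 and 325 CPM at spawning and 34.2, 43.8, 51.7 and 70.6 CPM in the ocean. There the lowest spawning library was above the highest ocean library. By level the top 4 of the 18 groups were spawning ovary (293 ± 72.3 CPM, SD, n = 5), spawning male head kidney (265 ± 46.5, n = 4), spawning testis (152 ± 66.9, n = 5) and spawning female head kidney (140 ± 29.5, n = 4). Neighbours in this order mostly overlapped: 14 of 17 pairs did.

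The cell-cycle inhibitor gene cdkn1ba had ocean means within a narrow range and spawning means far apart. In the ocean they ran from 7.85 ± 2.35 CPM in male muscle to 16.6 ± 4.97 CPM in ovary (n = 4 each). At spawning the mean was 303 ± 186 CPM in male muscle (n = 3), 168 ± 72.4 CPM in female muscle (n = 4) and 155 ± 48.5 CPM in testis (n = 5), but 22.9 ± 2.93 CPM in female head kidney and 25.8 ± 6.24 CPM in male head kidney (n = 4 each). The 3 spawning male muscle libraries differed among themselves, at 87.9, 396 and 424 CPM, and all lay above the 4 ocean libraries at 4.96, 6.93, 9.49 and 10 CPM. In female head kidney the groups were close but apart, at 20.4 to 27.1 CPM against 11.5 to 14.9 CPM, a log2 difference of 0.79 ± 0.20. With scaling by library size only this difference was 0.59 and no longer called.

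The repressor gene nfil3 was highest in head kidney at every stage. In female head kidney the ocean libraries held 68.9, 85.2, 102 and 113 CPM, the river libraries 115, 118, 152 and 156 CPM and the spawning libraries 185, 215, 260 and 341 CPM. None of these 3 ranges overlapped. Its largest spawning-to-ocean difference was in testis (3.65 ± 0.38), from 1.04 to 4.1 CPM in the ocean to 22.4 to 37.5 CPM at spawning. In male muscle the spawning libraries spread widely, at 19.8, 39.8 and 98.2 CPM, against 9.59, 11.6, 16.2 and 18.3 CPM in the ocean.

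The proteasome shuttle gene midn had its largest spawning-to-ocean difference in male muscle (6.61). Male muscle held 1.29, 1.32, 2.39 and 4.96 CPM in the ocean and 124, 293 and 321 CPM at spawning. Ocean female muscle was split, with 1.73 and 1.96 CPM in fish 7 and 2 and 19.3 and 25.3 CPM in fish 5 and 4, and all 4 lay below the spawning females at 132, 228, 260 and 373 CPM. The river females spread likewise, from 3.24 to 20.4 CPM. In ovary the groups overlapped: spawning libraries held 38.1, 39.2, 49.7, 50.4 and 62.2 CPM and ocean libraries 23.9, 24.2, 38.3 and 38.7 CPM, with a fitted difference of 0.61 ± 0.19. The ubiquitin-like gene ubl3b had a mean log2 difference of 1.22 over the 6 combinations. The spawning female muscle libraries held 13.1, 14.8, 23 and 37.9 CPM against 10.1, 12, 12.1 and 14.6 CPM in the ocean, which overlap. Its male head kidney libraries held 158, 160, 184 and 256 CPM against 51.5 to 75.5 CPM, which do not.

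The tetraspanin gene tspan36 was close to the counting floor in muscle and testis before spawning, except in the library labelled river male 6 (15.7 CPM in muscle, against 0 to 0.0592 CPM in the other 4 river males). The 4 ocean female muscle libraries held 19 counts in all (0.0821 to 0.548 CPM) and the 4 river female libraries 4 counts in all (0 to 0.0986 CPM), against 8.87, 22.2, 31.6 and 32.2 CPM at spawning. Ocean male muscle held 0, 0, 0.0689 and 0.484 CPM and spawning male muscle 8.32, 28.1 and 48.6 CPM. In both sexes the spawning libraries lay far above the ocean libraries, but with so few counts before spawning a fold is imprecise. Head kidney already held 11.2 to 12.6 CPM in ocean females, and 29.4 to 51.3 CPM at spawning. In testis the spawning level stayed low, at 1.49 to 3.25 CPM against 0 to 0.265 CPM in the ocean. Pigment cell markers, 6 genes, summed to 0.548 to 5.92 CPM in spawning female muscle with 2 of 6 at 0 and to 0.889 to 1.59 CPM in spawning male muscle with 2 of 6 at 0. In muscle of each sex 1 of the 6 was high enough to be tested, and it was not called. In spawning testis they summed to 59.3 to 174 CPM, against 1.67 to 4.45 CPM in the ocean, and 3 of 4 tested rose. In female head kidney they summed to 113 to 221 CPM at spawning and 172 to 225 CPM in the ocean, and 0 of 2 tested were called. Male head kidney held 35.7 to 138 CPM and 37.7 to 217 CPM, with 0 of 1 called. In ovary they summed to 74.8 to 109 CPM and 38.5 to 89.3 CPM, and of 5 tested 0 rose and 1 fell. The part of pigment cells in the tspan36 values was not tested. The membrane-rupture gene ninj1 was highest in head kidney (spawning males 87.5 ± 10.7 CPM and females 86.4 ± 23.4 CPM, n = 4 each, which overlap) and lowest in ocean testis (0.37 ± 0.0899 CPM, n = 5). In testis it went from 0.257 to 0.487 CPM in the ocean to 4.53 to 7.29 CPM at spawning, a log2 difference of 3.95 ± 0.32, its largest. In the other 5 combinations the difference lay between 0.85 (ovary) and 1.71 (male muscle).

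The receptor gene flt3 was lower at spawning in every combination. In ovary it held 3.48, 6.55, 6.81 and 7.2 CPM in the ocean and 0.125, 0.298, 0.36, 0.781 and 0.909 CPM at spawning, a log2 difference of -3.58 ± 0.50. In female head kidney, a blood-forming tissue, the level was higher at each stage, at 28.9 to 43.5 CPM in the ocean and 5.47, 6.23, 14.5 and 20.1 CPM at spawning. Spawning male muscle held 2 counts in its 3 libraries, and the pooled ocean-to-spawning ratio was 24.8 (95% counting interval 6.37 to 213). T and B lymphocyte markers moved with flt3 in head kidney: their summed level was 59 to 91.5 CPM in ocean females and 19.9 to 32.2 CPM at spawning, with 5 of 6 called lower, and 74.8 to 111 CPM and 18.3 to 43.1 CPM in males, with 4 of 6 called lower. Lymphocyte markers summed to 2.93 to 6.15 CPM in ocean ovary and 0.242 to 0.911 CPM at spawning, with 3 of 3 tested called lower, and to 3.23 to 4.96 CPM and 0.487 to 1.27 CPM in testis, with 1 of 1 called lower. In river testis they summed to 2 to 4.17 CPM, while flt3 was higher there than in the ocean. In muscle of each sex 0 of 6 were high enough to be tested. They summed there to 0.571 to 2.82 CPM in ocean females and 0.33 to 1.18 CPM at spawning, and to 0.413 to 1.45 CPM and 0.542 to 0.667 CPM in males. Endothelial markers summed to 446 to 508 CPM in ocean ovary and 237 to 336 CPM at spawning, with 3 of 4 called lower, but summed higher in testis, where flt3 fell, from 10.1 to 16.1 CPM in the ocean to 210 to 274 CPM at spawning, with 4 of 4 called higher. Erythroid markers were called lower in 4 of 5 cases in ovary (58.7 to 810 CPM in the ocean, 11.1 to 66 CPM at spawning) and in 3 of 5 in male head kidney (239 to 430 CPM, 48.1 to 252 CPM). In testis 2 of 2 tested were called higher (2.76 to 5.27 CPM, 14.1 to 67.1 CPM). The part of these cells in the flt3 value was not tested. The repair factor gene slf1 differed by less, with log2 differences between -0.76 in ovary and -1.79 in testis, and in male muscle it stood at -1.10 ± 0.42, which turned to 0.11 ± 0.44 when libraries were scaled by size only. Ocean testis held 39.5, 41.9, 44.6, 48.8 and 53.1 CPM, above every library of the other 17 groups, and spawning testis 10.4 to 15.2 CPM. Spawning female muscle was the lowest group, at 1.18, 1.44, 1.48 and 2.36 CPM against 3.75 to 6.74 CPM in the ocean.

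The genes were chosen on spawning minus ocean, but from fits over 3 stages, so the river libraries entered the filter, the scaling and the spread behind that choice. Without river male 3 or 4 muscle 7 of the 9 genes kept a call in all 6 combinations, and without river male 2 or 5 muscle 8 did. The river minus ocean comparison shares its ocean libraries, and spawning minus river its spawning libraries, with the comparison that chose the genes, so neither is independent of it, and the values are set side by side. From ocean to river, 0 of 9 genes were called in 5 of the 6 combinations with edgeR, where 0.0415% of all genes were called in female muscle, 0.145% in male muscle, 0.117% in female head kidney, 0% in male head kidney and 0% in ovary. Ranges of ocean and river libraries did not overlap for 7 of 54 cases, 5 of them in testis, against 9.71% of all genes in female muscle, 7.39% in male muscle, 13.9% in female head kidney, 5.26% in male head kidney, 6.57% in ovary and 25.5% in testis. At an unadjusted p under 0.05 stood 1 gene in female muscle, 2 in male muscle, 2 in female head kidney, 1 in male head kidney and 0 in ovary. Of all genes, 2208 of 21695, 3059 of 22042, 4098 of 27374, 2669 of 26897 and 2338 of 28339 stood there, in the same order. DESeq2 called 1, midn in male muscle, and 0 in the other 4. Over all genes DESeq2 called 332, 693, 1537, 170 and 147 in that order, where edgeR called 0 in male head kidney and ovary. Among the genes at an unadjusted p under 0.05, tspan36 in female muscle (-2.40 ± 0.81) went against its listed direction. So did flt3 in male head kidney (0.77 ± 0.27), with a mean of 39.1 CPM in the river and 23 CPM in the ocean. The others went as listed. From river to spawning 9 of 9 were called as listed in female muscle (48.3% of all genes called), 5 in male muscle (23.3%), 9 in female head kidney (8.46%), 8 in male head kidney (9.22%), 8 in ovary (37.9%) and 9 in testis (80.6%). Ranges of river and spawning libraries did not overlap in 45 of 54 cases, against 42.7%, 17.6%, 14.3%, 19.2%, 31.8% and 66.6% of all genes in the same order of tissues. In muscle of both sexes and in testis, tspan36 passed the filter only through its spawning libraries, and so did ninj1 in testis. River female muscle held 4 pooled counts of tspan36 against 2010 at spawning. River testis held 11 against 187, and 37 of ninj1 against 460. The filter favoured these calls and ranges, which are given as a description. The exceptions to the calls outside male muscle were nfil3 in male head kidney (0.60 ± 0.21, adjusted p = 0.0966) and ninj1 in ovary (0.62 ± 0.26, adjusted p = 0.0832). The 9 calls in female head kidney became 6 to 8 with any 1 library left out. They became 8 with a renal tubule covariate and 5 with 2 stages only. In female head kidney, tspan36 and nfil3 had river libraries wholly above the ocean libraries (13.5 to 22.5 against 11.2 to 12.6 CPM for tspan36). Neither was called (adjusted p = 0.322 and 0.273).

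**Figure D2:**
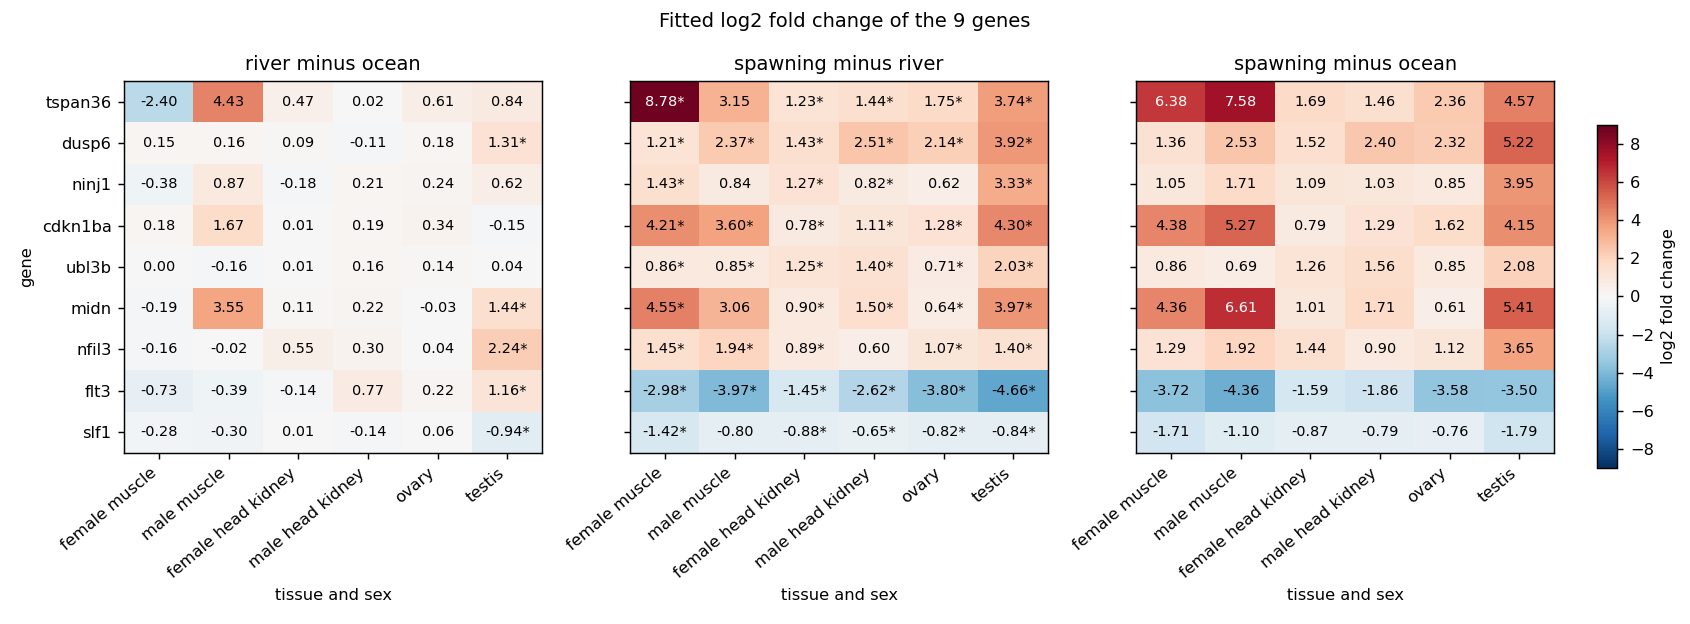
Fitted log2 fold change of each gene in rows in each tissue and sex in columns for the 3 comparisons of stages, red for higher and blue for lower. An asterisk marks an adjusted p under 0.05 in the 2 left panels, and the right panel carries no mark because it chose the genes. In spawning minus river, tspan36 in muscle and testis and ninj1 in testis passed the filter only through spawning libraries. Between ocean and river the only asterisks stand in testis, and strong colours without one include tspan36 in female muscle (-2.40 ± 0.81) and in male muscle (4.43 ± 2.01, which includes the library labelled river male 6). The male muscle values of flt3 rest on 2 counts at spawning, and the value of slf1 there turns positive in spawning minus ocean (0.11) with scaling by library size only.

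Testis was the exception, where 39.2% of all genes were called between ocean and river and 5 of the 9 were. Higher in the river were nfil3 (2.24 ± 0.36, adjusted p = 0.000647), midn (1.44 ± 0.25, adjusted p = 0.000888), dusp6 (1.31 ± 0.33, adjusted p = 0.00685) and flt3 (1.16 ± 0.30, adjusted p = 0.00873). The repair factor slf1 was lower (-0.94 ± 0.18, adjusted p = 0.00167). For flt3 this is the opposite of its direction at spawning. Its 5 ocean testis libraries held 1.67 to 2.37 CPM, the 5 river libraries 2.84, 4.62, 5.08, 5.1 and 5.45 CPM and the 5 spawning libraries 0.0707, 0.119, 0.13, 0.178 and 0.365 CPM, and no 2 stages overlapped. The other 4 genes, tspan36, ninj1, cdkn1ba and ubl3b, were not called in this step, with log2 changes between -0.15 ± 0.26 (cdkn1ba) and 0.84 ± 0.83 (tspan36). Leaving out any 1 of the 15 testis libraries left the count at 5. The summed germ cell markers of river testis, 7670 to 16600 CPM, were not below those of the ocean, while the somatic markers, 98 to 335 CPM, lay above the ocean range.

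In male muscle the river values turn on the library labelled river male 6. It held 15.7 CPM of tspan36 against 0 to 0.0592 CPM in the other 4 river males, 104 CPM of cdkn1ba against 4.16 to 6.11 and 126 CPM of midn against 1.89 to 7.69. It held 0.0459 CPM of flt3 against 0.237 to 0.937 and 1.93 CPM of slf1 against 3.8 to 5.21. Of the 9 genes, 6 lay within the range of the 3 spawning males. For dusp6 (9.55 CPM) and ubl3b (14.6 CPM) it lay between the river and spawning ranges, and for ninj1 (3.12 CPM) above both. Its skeletal muscle markers summed to 1160 CPM, against 5670 to 8530 CPM in the other river males and 606 to 1220 CPM at spawning, and its total count of 16138878 was below theirs (17061912 to 17782203) and within that of the spawning males (15784611 to 17580563). The part of the muscle markers in its other values was not tested. Whether its label is right was not tested.

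**Figure D3:**
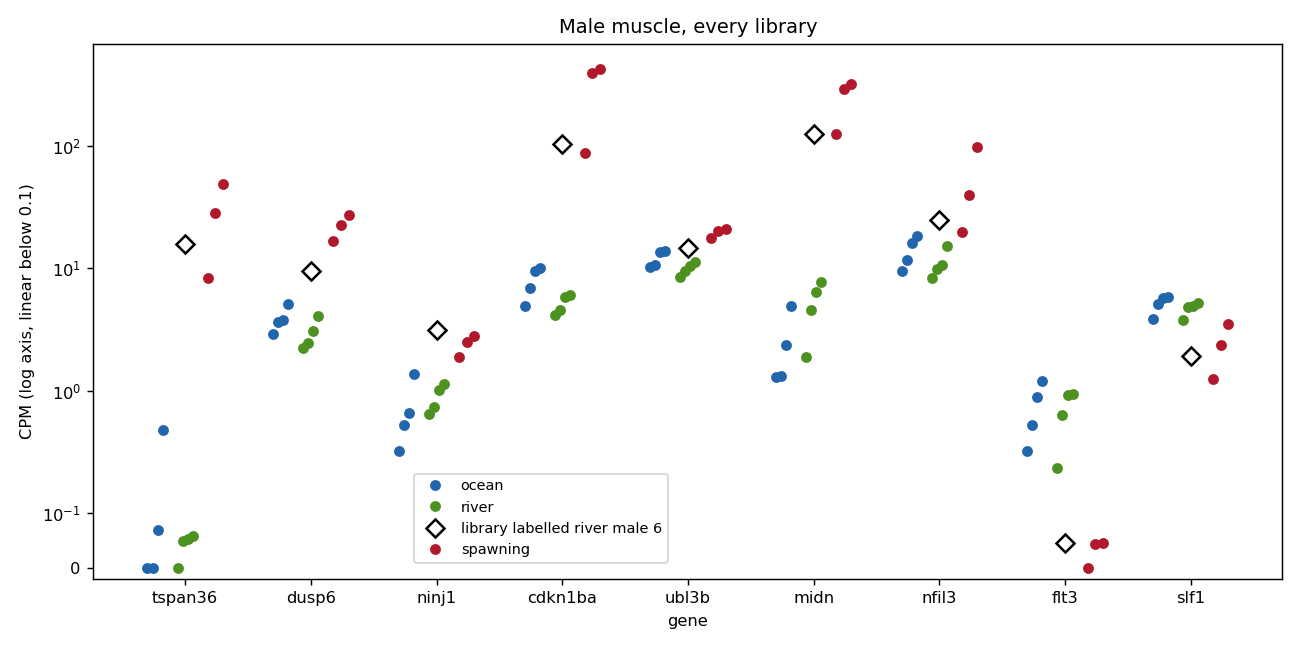
Level of each gene in every male muscle library, in CPM on a log axis that is linear below 0.1, coloured by stage, with the library labelled river male 6 as an open diamond. The diamond stands outside the other 4 river points for each gene, on the side of the spawning points. For dusp6 and ubl3b it lies between the river and spawning points, and for ninj1 above both.

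Without that library, 9 of 9 genes were called from river to spawning in male muscle (50.7% of all genes), where 5 were called with it, and 0 were called from ocean to river (1% of all genes). Among the 9, tspan36 passed the filter only through its spawning libraries. River and spawning ranges in male muscle then did not overlap for 9 of 9 genes (53.5% of all genes), where 2 of 9 did not with it, which takes the 45 of 54 cases to 52. Ocean and river ranges there overlapped for all 9 genes with and without it, beside 12.7% of all genes that did not overlap without it. From ocean to river in male muscle, 0 genes then had an unadjusted p under 0.05 and DESeq2 called 0, with midn at 1.03 (DESeq2 adjusted p = 0.281). The log2 difference from river to spawning was then 9.30 ± 0.90 for tspan36, 5.88 ± 0.50 for cdkn1ba and 5.58 ± 0.58 for midn, against 3.15 ± 1.53, 3.60 ± 1.02 and 3.06 ± 1.09 with it. For tspan36 the remaining river males held 0 to 0.0592 CPM, close to the counting floor, so the fold of 9.30 is imprecise. The count of 5 called genes also moved with other single libraries: it was 3 without river male 2 or 5, 2 without spawning male 8 and 1 without spawning male 9. In the other tissues of river male 6, 6 of 9 genes in testis and 4 of 9 in head kidney lay beyond the other river males on the side of spawning. In testis its dusp6 level was 17.5 CPM against 5.48 to 10.3 CPM, and in head kidney its ubl3b level was 94.4 CPM against 62.2 to 66 CPM in the other 3. Its tspan36 level was within the range of the other river males in both tissues. The same count over all 51 ocean and river libraries had a median of 2 of 9, and the only other library above 6 of 9 was ocean male 8 head kidney, with 8 of 9.

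Females and males in the river were also compared. This comparison uses no ocean or spawning library, though its libraries entered the fits that chose the genes. In head kidney (4 females, 4 males) 0 of 9 genes were called, and over all 24719 genes 0 were called with edgeR, 0 with limma-voom and 42 with DESeq2, and 565 genes had an unadjusted p under 0.05. The 1 member among these was ninj1, at 31.1, 34.9, 37.7 and 39.8 CPM in females and 41.9, 48.8, 50.9 and 56.5 CPM in males. These levels rest on a scaling of each sex apart. In them all 4 females lay below all 4 males, and how many of all genes do so was not counted. The fitted log2 difference (female minus male), from a joint scaling of both sexes, was -0.46 ± 0.13 (adjusted p = 1). In muscle (4 females, 5 males) 0 of 8 tested genes were called, against 0.00959% of 20864 genes with edgeR. The gene tspan36 was too low there to be tested. DESeq2 and limma-voom called 0 of the 9 in head kidney and 0 of the same 8 in muscle. Over all genes in muscle they called 62 and 2. At an unadjusted p under 0.05 in muscle stood 0 of the 8, beside 749 of 20864 genes. The widest differences in muscle, -1.70 ± 1.18 for midn and -1.68 ± 1.01 for cdkn1ba, include the library labelled river male 6, and leaving it out also gave 0 calls.

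Genes of the same pathways and families were counted in spawning minus ocean, as a description beside all genes tested. Their members were matched by symbol, and rises and falls are calls over all genes tested. Of all genes, 50.5% were called in female muscle, 40.2% in male muscle, 7.92% in female head kidney, 6.76% in male head kidney, 36.3% in ovary and 84% in testis.

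**Figure D4:**
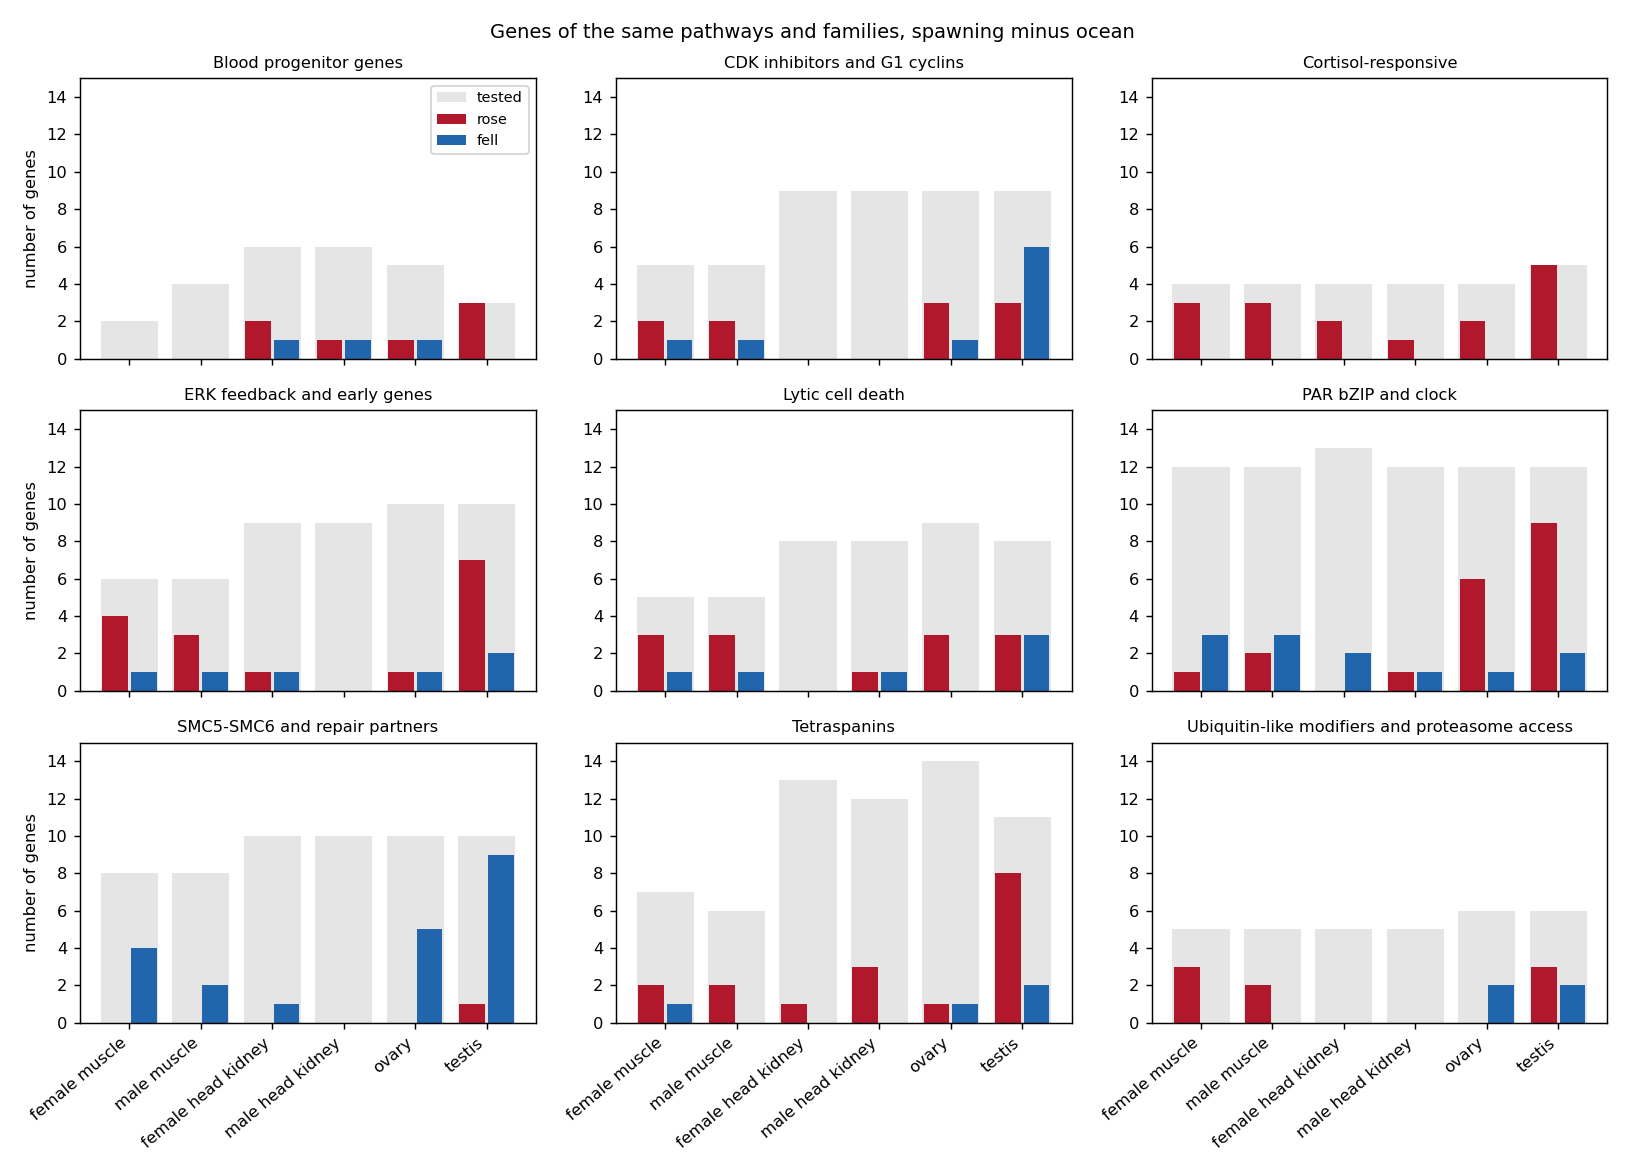
Number of genes tested (grey), higher (red) and lower (blue) at spawning than in the ocean at an adjusted p under 0.05, for 9 lists of related genes in the 6 combinations of tissue and sex. SMC5-SMC6 and general DNA repair genes fell in 9 of 10 cases in testis and 5 of 10 in ovary. They fell in 1 of 10 and 0 of 10 in female and male head kidney. Cortisol-responsive genes rose in 5 of 5 in testis and 1 of 4 in male head kidney, and in none of the 6 combinations did they fall.

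Around dusp6, ERK feedback and early response genes rose in 4 of 6 cases and fell in 1 in female muscle, and rose in 7 of 10 and fell in 2 in testis. In male muscle 3 of 6 rose and 1 fell, and in ovary 1 of 10 rose and 1 fell. In head kidney 1 of 9 rose and 1 fell in females, and 0 of 9 were called in males. The phosphatase dusp5, which also acts on ERK, rose in 4 combinations, by 2.88 ± 0.76 in male muscle (adjusted p = 0.0121) and 1.37 ± 0.30 in testis (adjusted p = 0.000618), and stood at 0.03 ± 0.34 in ovary. The AP-1 gene fosl2 rose in 4, by 6.31 ± 0.49 in testis (adjusted p = 9.62e-09), and the early response gene egr3 fell in 3, by 2.02 in ovary. The list median was 0.86 in female muscle and 1.55 in testis, beside -0.01 and -0.12 over all genes. It was 1.9 in male muscle, 0.31 and -0.11 in female and male head kidney and 0.33 in ovary. Over all genes the median was 0.03, -0.06, -0.1 and -0.02 in that order.

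Among CDK inhibitors and G1 regulators around cdkn1ba, 2 of 5 rose and 1 fell in muscle of each sex, and 3 rose and 6 fell of 9 in testis. In ovary 3 rose and 1 fell of 9, and in head kidney of each sex 0 of 9 were called. The retinoblastoma gene rb1 rose in 3 combinations, by 1.71 ± 0.29 in female muscle (adjusted p = 0.000303), and fell in testis by 0.57. Its relative rbl1 fell in 3, by 1.39 in female muscle. The gene cks2, for a CDK subunit, rose in muscle, by 1.68 ± 0.42 in females and 1.52 ± 0.51 in males. In testis cks2 went from 338 to 0.193 CPM (adjusted p = 8.01e-12) and cdkn2d from 98.5 to 0.0866 CPM. Germ cell markers fell there too, a part that was not tested.

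Clock genes and PAR bZIP relatives of nfil3 rose in 9 of 12 cases and fell in 2 in testis, rose in 6 and fell in 1 of 12 in ovary, and in female muscle rose in 1 and fell in 3 of 12. In male muscle 2 of 12 rose and 3 fell. In head kidney 0 of 13 rose and 2 fell in females, and 1 of 12 rose and 1 fell in males. The PAR bZIP gene hlfb fell in 4 combinations. It fell by 4.71 in male muscle and fell by 3.86 in female head kidney, and it was not called in testis (0.73 ± 1.04, adjusted p = 0.517). The cryptochrome cry1b rose in 4, by 3.03 ± 0.27 in testis (adjusted p = 4.22e-08). A gene of the nfil3 family, nfil3-5, differed from nfil3: it fell in muscle, by 1.57 in females and 2.75 in males, and rose in ovary (1.45 ± 0.29) and testis (6.14 ± 0.53).

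Around midn and ubl3b, ubiquitin-like modifiers and proteasome access genes rose in 3 of 5 cases in female muscle and 2 of 5 in male muscle, and fell in 2 of 6 in ovary. In testis 3 of 6 rose and 2 fell, and in head kidney of each sex 0 of 5 were called. The proteasome activator psme3 rose in muscle (1.71 ± 0.30 in females, 2.20 ± 0.65 in males) and fell in ovary by 0.69 and in testis by 2.13. The modifier urm1 rose in muscle of both sexes and in testis and fell in ovary. The other ubl3 gene, ubl3a, rose in 1 of 6 combinations and fell in 0. Because salmonid genomes carry many duplicated genes, reads of near-identical copies could be split between them, and copies whose symbol is only a LOC number were not used here.

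Other tetraspanins rose in 8 of 11 cases and fell in 2 in testis. In the other 5 combinations 1 to 3 rose and 0 or 1 fell. The gene tspan9a rose in 5 combinations, by 1.53 ± 0.29 in female muscle and 3.33 ± 0.56 in testis, and stood at 0.29 ± 0.24 in ovary. The gene tspan31 rose in 4, and tspan5a fell in female muscle by 1.35 and rose in testis by 4.61. Genes of lytic and apoptotic death around ninj1 rose in 3 of 5 cases and fell in 1 in muscle of each sex. In testis 3 of 8 rose and 3 fell, and in ovary 3 of 9 rose and 0 fell. In head kidney 0 of 8 were called in females, and 1 of 8 rose and 1 fell in males. The initiator caspase casp9 rose in 4 combinations, by 2.29 ± 0.28 in female muscle, and fell in testis, while casp8 fell in 3.

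Blood progenitor genes moved in both directions. In head kidney 2 of 6 rose and 1 fell in females and 1 rose and 1 fell in males. In testis 3 of 3 tested rose, and in ovary 1 of 5 rose and 1 fell. In muscle 0 of 2 were called in females and 0 of 4 in males. The granulocyte receptor csf3r rose in 4 combinations, from 874 to 2220 CPM in female head kidney (adjusted p = 0.0263), and the repressor gfi1ab fell in head kidney of both sexes, by 2.00 and 1.71. SMC5-SMC6 and general DNA repair genes, listed around slf1, fell in 9 of 10 cases in testis and 5 of 10 in ovary. They fell in 4 of 8 in female muscle and 2 of 8 in male muscle. Of the genes for the proteins that slf1 links, smc5 fell in 1 of 6 combinations and rad18 in 3 of 6. The third, smc6, rose in 1 and fell in 1. In head kidney 1 of 10 fell in females and 0 of 10 in males. The only rise was smc6 in testis (3.72 ± 0.45). The kinase gene atr fell in 4 combinations, and in testis it fell by 2.65. The gene fanci, of the Fanconi anaemia pathway, also fell in 4, and in testis it fell by 5.13.

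Cortisol-responsive genes rose in 3 of 4 cases in muscle of each sex, 2 of 4 in female head kidney, 1 of 4 in male head kidney, 2 of 4 in ovary and 5 of 5 in testis. The transcription factor klf9 rose in all 6 combinations, from 1.89 ± 0.28 in female head kidney to 5.76 ± 1.43 in male muscle, and is 1 of the 17 genes with a symbol called one way in all 6. In head kidney and male muscle the counts of called list genes depend on single libraries. Over all 9 lists the 11 calls in female head kidney became 7 without ocean female 2 or 5 or spawning female 1, 6 without ocean female 4 and 5 without ocean female 7. The 10 calls in male head kidney became 6 without ocean male 9 or spawning male 6, 7 or 9, 5 without ocean male 1, 4 without spawning male 10 and 3 without ocean male 6. The 25 calls in male muscle became 16 without spawning male 8.

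The genes most like each of the 9 in pattern were found by Pearson correlation over the 18 group means of log2 CPM, centred within each tissue and sex, among 5702 genes with a symbol. These points share libraries and scaling, and the values are a description. The closest were mat2b for tspan36 (r = 0.982), si:ch211-195b13.1 for dusp6 (0.976), lg16h17orf75 for ninj1 (0.975), zgc:100918 for cdkn1ba (0.99), gpr84 for ubl3b (0.957), glrx for midn (0.987), mbd2 for nfil3 (0.979), lrrc17 for flt3 (0.956) and scai for slf1 (0.957). For ubl3b the next was dusp6 itself (0.954). The closest gene was the same for 9 of 9 without the library labelled river male 6, with r from 0.956 to 0.99. The genes next to the 9 on their chromosomes in RefSeq's even-year pink salmon assembly were looked up. Of 18 neighbours, 14 were tested in at least 1 combination and 8 in all 6. In the direction of the member, 0 of these 8 were called in all 6 combinations, beside 0.465% higher and 0.062% lower of all genes tested in all 6.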

How the data were processed

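Poly(A) RNA libraries of 3 tissues and 3 stages were measured. The deposited tables hold expected counts per gene, 36.4% of them not whole numbers. The submitters' processing notes list Salmon 1.8.0, R 4.3.3 and Trim Galore 0.6.4 with no order, and the genome build is not given in the sources used here. Expected counts were rounded. Each of the 6 combinations of tissue and sex was fitted apart over 3 stages with edgeR 4.0.16 in R 4.3.3 (filterByExpr by stage, TMM scaling, quasi-likelihood test, Benjamini-Hochberg adjustment over all genes tested, call at adjusted p under 0.05). The scripts were tested on simulated data with few genes changed at spawning. In female muscle these were 99 by a log2 of 1 and 101 by a log2 of 2, of 21695 genes. Of genes changed by a log2 of 1, they called 6 of 99 in female muscle and 0 of 91 in male muscle. In female head kidney they called 6 of 105, in male head kidney 4 of 91, in ovary 28 of 106 and in testis 15 of 96. At a log2 of 2 they called 70 of 101, 20 of 109, 41 of 95, 52 of 109, 60 of 94 and 77 of 104 in the same order. Many more genes were called between spawning and ocean in the data, 10950 in female muscle, than were changed here. The adjusted threshold was therefore stricter in the simulation, and these shares do not give the share of changes found in that comparison. A gene that was not called may still differ. The SE given with a log2 difference is its absolute value divided by the square root of the quasi-likelihood F statistic. River sexes were compared within muscle and head kidney, also with limma 3.58.1. Other scalings, no filter, DESeq2 1.42.0, 2 stages only, a replicate block, a renal tubule covariate in head kidney and left-out libraries were tried. Ranges, unadjusted p-values, DESeq2 and likeness without river male 6 were added after seeing the data. The 9 genes and all lists were chosen with earlier results of these data known. From each list up to 2 genes per direction were named, those called in most combinations, ties broken by the larger mean change. Depth ran from 12719694 to 29286325 counts per library, and the counting interval for flt3 covers counting error only. Of 40756 gene identifiers, 40754 matched RefSeq's gene table, which was used for names and neighbours. Gene descriptions and sequences were not used here.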

Additional observations from a re-analysis of the deposited data

Results flagged for a closer look

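Of 153 cases of a gene in a group of 4 or 5 libraries, 12 held a library far from the others of its group. The rule flags about 1 in 20 for normal values, but these cases share libraries, so the count cannot be set against that rate. The 9 cases in spawning male muscle, the group of 3 libraries, were not examined. In river male muscle, fish 6 stood apart for 5 genes. It held 15.7 CPM of tspan36 (others 0 to 0.0592), 9.55 CPM of dusp6 (others 2.24 to 4.05), 3.12 CPM of ninj1 (others 0.651 to 1.13), 104 CPM of cdkn1ba (others 4.16 to 6.11) and 126 CPM of midn (others 1.89 to 7.69). In river male head kidney, fish 6 held 94.4 CPM of ubl3b (others 62.2 to 66). Counts of called genes with single libraries left out are given further on, and the cause of these values was not tested.

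In ocean male muscle, fish 1 held 0.484 CPM of tspan36 (others 0 to 0.0689). In spawning ovary, fish 4 held 108 CPM of tspan36 (others 46.7 to 51.9), and in ocean ovary, fish 7 held 72 CPM of dusp6 (others 53 to 55.7). Ocean female head kidney gave the remaining 3, which came from different fish. Fish 2 held 47 CPM of ninj1 (others 38.2 to 39.2), fish 5 held 20.3 CPM of midn (others 16.9 to 17.5) and fish 7 held 37.6 CPM of slf1 (others 27.4 to 28.9).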

How the results depend on the processing

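RLE scaling kept every count of called genes below within 1.5 times its value. Scaling by library size only moved the median log2 difference of all genes between spawning and ocean to 0.76 in female muscle, 1.18 in male muscle, -0.25 and -0.24 in female and male head kidney, 0.16 in ovary and -0.04 in testis. The genes called higher and lower then numbered 9461 and 2635 in female muscle (5591 and 5359 with TMM) and 10894 and 1499 in male muscle (4447 and 4419). They numbered 755 and 1418 in female head kidney (1306 and 861), 956 and 987 in male head kidney (1121 and 698) and 6148 and 4238 in ovary (4608 and 5678). From ocean to river they numbered 488 and 24 in female muscle (3 and 6), 6260 and 64 in male muscle (8 and 24) and 5084 and 6563 in testis (7273 and 3764), and from river to spawning 1584 and 1814 in male muscle (1842 and 3285) and 6201 and 4422 in ovary (4772 and 5962). Under this scaling slf1 reversed in male muscle between spawning and ocean, to 0.11, 1 of 9 genes was called between ocean and river in male muscle, and list calls in male head kidney went from 10 to 6. All 9 genes were called in all 6 combinations with DESeq2, and 7 with library size only, without the filter or with 2 stages only. The genes were chosen by calls on these same libraries, so these counts are a description and give no independent support. DESeq2 called 1 gene between ocean and river in male muscle, and 23 and 16 list genes in female and male head kidney. With 2 stages only, river to spawning gave 3 calls in male muscle and 5 in female head kidney. These causes were not tested.

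Fish of different stages share only a number: over 27 pairs of same-numbered libraries the correlation of deviations ran from -0.61 to 0.75, with 6 over 0.1. A replicate block by fish number left 0 of 9 genes called in all 6 combinations. Because same-numbered fish are different fish, the block adjusts for no real pairing. Its added terms also leave few libraries from which to estimate the spread. A loss of calls under it therefore cannot be read as a result about the genes. From ocean to spawning the block left 0 in female head kidney, 0 in male head kidney and 5 in ovary. From river to spawning it left 0 in female muscle, 1 in male muscle, 0 in head kidney of each sex and 2 in ovary, and from ocean to river 2 in testis. List calls under the block were 17 in female muscle, 15 in male muscle, 0 in head kidney of each sex and 18 in ovary.

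Leaving out 1 library at a time gave 5 to 9 genes called in all 6 combinations. From ocean to spawning it gave 7 to 9 in female muscle and female head kidney, 5 to 9 in male muscle, 8 to 9 in male head kidney and ovary, and 9 in testis. From river to spawning it gave 8 to 9 in female muscle, 1 to 9 in male muscle, 6 to 8 in female head kidney, 7 to 9 in male head kidney and ovary, and 9 in testis. From ocean to river it gave 5 in testis and 0 elsewhere, and 0 between the sexes. List calls ran from 25 to 30 in female muscle, 16 to 33 in male muscle, 5 to 11 in female head kidney, 3 to 13 in male head kidney, 23 to 31 in ovary and 64 to 67 in testis. With few counts, tspan36 and flt3 in muscle limit what a fold can show. A comparison with other gene copies and a search of promoters for motifs were not run, because descriptions and promoter sequences were not used here.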
